A study of Mus musculus with 12 samples.

Results

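Simple epithelial keratins are the intermediate filament proteins of single-layered epithelia, and the adhesion molecule Epcam marks the same epithelia. The genes described here are Krt7, Krt8, Krt18, Krt19, Krt20 and Epcam. The rule takes every probe set to which the platform annotation gives 1 gene symbol among these 6. It uses no measured value, but the 6 genes were picked with earlier results of these data known. That gave 8 probe sets, 3 of them for Krt8, of the 22452 that are not controls, and 6 of the 12335 genes these name. No probe set carried one of these symbols together with another.

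The study compared pancreata of wild type (C57BL6) and Mist1KO mice after hourly injections of saline or of caerulein over 4 hours. There were 4 groups of 3 pancreata with 1 Affymetrix array each: Wild type saline, Wild type caerulein, Mist1KO saline and Mist1KO caerulein. All mice were males of 2 to 4 months. Labelling started from some 10 µg of pancreas RNA. Mist1KO mice lack Mist1, a transcription factor of secretory cells that is encoded by Bhlha15. Neither the caerulein dose nor the genetic background of the Mist1KO mice is given in the sources used here. Caerulein mimics the gut hormone cholecystokinin: it makes acinar cells secrete, and repeated high doses cause pancreatitis.

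Keratin filaments are built from pairs of a type II and a type I chain. Krt8 (type II) and Krt18 (type I) form the filaments of the enzyme-producing acinar cells, while duct cells also carry Krt7 (type II) and Krt19 (type I). Krt20 (type I) is best known from intestinal and gastric epithelium, and Epcam is a surface protein of many epithelia, with more of it on duct than on acinar cells. In whole pancreas, fewer cells of a type and less RNA per cell cannot be told apart.

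Krt7, Krt8 and Krt18 lie on mouse chromosome 15 (GRCm38.p6), at 101412403 to 101427806, 101996711 to 102004342 and 102028216 to 102032026. Only 23873 bases separate the gene bodies of Krt8 and Krt18, which are read away from each other. Krt20 and Krt19 lie on chromosome 11, at 99428385 to 99438153 and 100140810 to 100145926, and Epcam lies on chromosome 17, at 87635979 to 87651127. RefSeq promoter windows (GRCm38.p6, 250 bases before to 50 after the annotated start) were matched for 5 of the 6 genes, not for Krt19. They are shown for Krt8 and Krt18, which moved together, and for Krt20, whose pattern differed most from theirs. Krt8 is at chr15:102004293-102004592 on the minus strand, Krt18 at chr15:102027966-102028265 on the plus strand and Krt20 at chr11:99438104-99438403 on the minus strand. Capitals mark matches to any of 8 motifs searched on both strands.
Krt8: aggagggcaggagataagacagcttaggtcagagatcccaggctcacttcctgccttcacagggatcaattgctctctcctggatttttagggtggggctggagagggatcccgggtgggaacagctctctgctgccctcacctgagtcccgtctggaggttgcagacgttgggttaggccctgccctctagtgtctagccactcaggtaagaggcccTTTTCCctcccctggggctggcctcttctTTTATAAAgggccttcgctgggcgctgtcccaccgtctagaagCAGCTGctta
Krt18: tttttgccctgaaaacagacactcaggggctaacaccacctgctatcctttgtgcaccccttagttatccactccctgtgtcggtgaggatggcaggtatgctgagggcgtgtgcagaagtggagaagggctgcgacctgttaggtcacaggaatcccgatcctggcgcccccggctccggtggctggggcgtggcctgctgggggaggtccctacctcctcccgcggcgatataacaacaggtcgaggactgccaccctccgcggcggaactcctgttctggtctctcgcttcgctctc
Krt20: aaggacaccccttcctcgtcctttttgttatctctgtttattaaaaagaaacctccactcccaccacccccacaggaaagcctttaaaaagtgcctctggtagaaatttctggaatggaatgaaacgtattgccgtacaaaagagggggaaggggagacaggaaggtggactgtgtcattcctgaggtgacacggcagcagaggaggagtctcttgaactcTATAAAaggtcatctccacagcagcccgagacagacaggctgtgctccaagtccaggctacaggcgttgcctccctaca

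The motifs were TATAAA (a core promoter box), TGANTCA (AP-1), TGACGTCA (cyclic AMP response element), TGATGNAA (C/EBP and ATF composite), GGGCGG (GC box), CATATG (an E-box of the kind bound by Mist1), CAGCTG (another E-box) and GGAAAA (NFAT core). In the Krt8 window the match at the start, bases -3 to 5, is TATAAA overlapping its own reverse complement, and this motif was present in 13.6% of all 32851 windows. Krt8 also held CAGCTG at bases 41 to 46, as did 16.3% of windows, and the reverse of GGAAAA at bases -32 to -27, as did 23.4%. The Krt18 window held none of the 8 motifs. Krt20 held TATAAA at bases -29 to -24. In the windows not shown, Krt7 held 4 matches to GGGCGG and Epcam held 1, against 35.7% of windows with at least 1. None of the 5 windows held TGANTCA (7.81% of windows), TGACGTCA (1.79%), TGATGNAA (3.97%) or CATATG (3.91%). A match or its absence describes these letters in this window and is no evidence of binding.

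The values are linear signal intensities, with trimmed means nearly equal on all arrays. Bhlha15 read 729.5 to 1624.3 over the wild type arrays, and 38.3 to 106.8 over the Mist1KO arrays, which did not overlap. The geometric mean of the 9 hybridisation spike probe sets, which no tissue makes, was 864 to 991 in wild type saline and 280 to 362 in Mist1KO caerulein. In those groups the 50 brightest probe sets took 16.3% to 19.4% and 8.39% to 11.4% of the signal. The Actb 3′ signal over its 5′ signal, a measure of RNA integrity, was 1.46 to 1.66 after saline and 1.28 to 1.40 after caerulein in wild type. In Mist1KO it was 1.70 to 1.93 and 1.08 to 1.20, the highest and the lowest of the 4 groups. With caerulein the spikes changed by -0.30 on the log2 scale in wild type and by -1.11 in Mist1KO, and in Mist1KO against wild type by -0.46 after saline and by -1.27 after caerulein; the part of these measures in the changes was not tested. The acinar markers were present on all arrays: the summed signal of 15 of them was 225401.5 to 279270.5 in wild type saline and 96776 to 145492 in Mist1KO caerulein.

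Each change is a difference of group means of log2(signal + 18.7) with its SE (n = 3), from limma fitted to all 12 arrays, with p-values adjusted over the 15716 probe sets tested. Folds are on that scale and understate changes of dim genes. A gene rose or fell when its adjusted p was under 0.05. The 4 comparisons of groups share arrays with each other, so each is given by its own values.

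**Figure D1:**
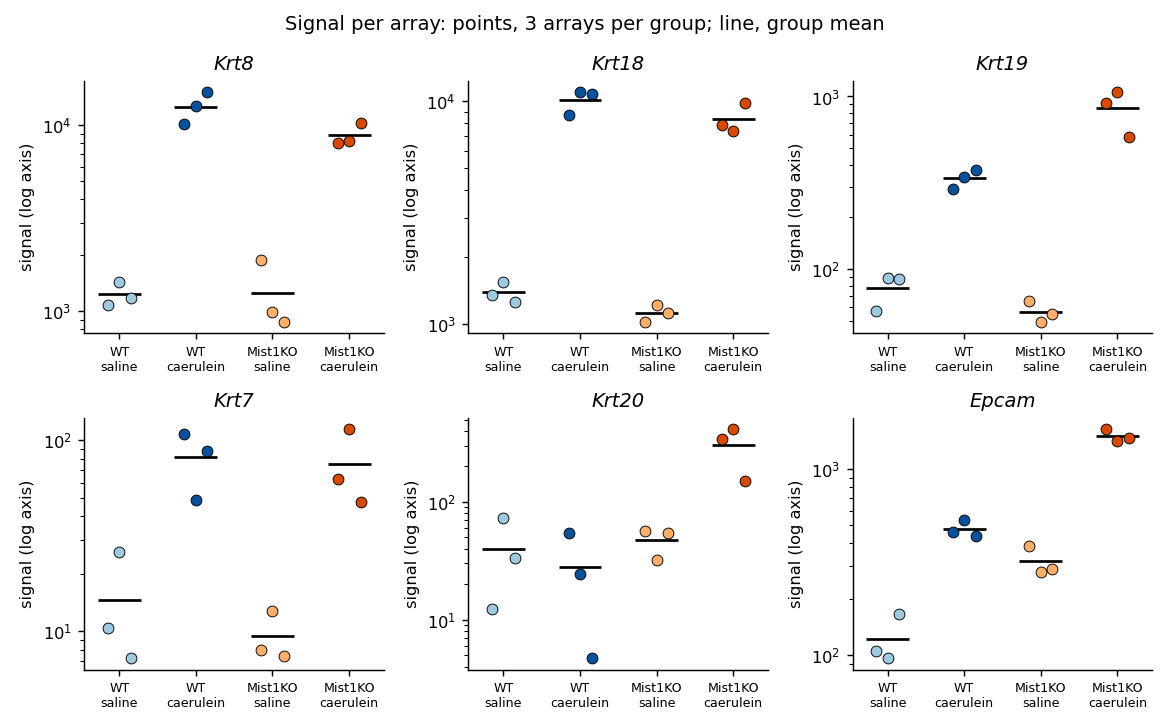
Signal on a log axis for each of the 12 arrays, by group, for the brightest probe set of each gene; points are arrays and lines are means of 3 arrays. Krt8 and Krt18 after caerulein sit at 7335.8 or higher in both genotypes, Krt20 stands apart in Mist1KO caerulein (150 to 414.6), and Epcam steps up with both Mist1KO and caerulein.

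Krt8 and Krt18, the acinar filament pair, rose strongly with caerulein in both genotypes. Krt8 read 1084.5, 1434.2 and 1184.2 in wild type saline and 10156, 12645.8 and 15044.4 in wild type caerulein. It read 1894.6, 985.9 and 879 in Mist1KO saline and 8057.8, 8270.9 and 10299.2 in Mist1KO caerulein. All 6 caerulein arrays were far above all 6 saline arrays, and Mist1KO saline replicate 1 stood above the rest of the saline arrays. Krt8 rose 10.0-fold in wild type (3.33 ± 0.24, adjusted p = 7.44e-07) and 7.37-fold in Mist1KO (2.88 ± 0.24, adjusted p = 1.58e-06).

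The other Krt8 probe sets, both of a kind whose probes can match further sequences, gave somewhat larger folds. They rose 11.6-fold and 15.6-fold in wild type, and 10.2-fold and 15.3-fold in Mist1KO. Mist1KO saline replicate 1 was again the highest saline array with both of them (1200.7 and 937.3). The response of Krt8 did not pass as different between the genotypes (-0.44 ± 0.34, 95% interval -1.17 to 0.28, adjusted p = 0.572).

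Krt18 read 1352.6, 1551 and 1257.6 in wild type saline and 8685.2, 10969.4 and 10840.1 in wild type caerulein. In Mist1KO it read 1026.6, 1218.2 and 1122.4 after saline and 7814.3, 7335.8 and 9831.3 after caerulein. The caerulein arrays again lay well above the saline arrays. Krt18 rose 7.23-fold in wild type (2.85 ± 0.14, adjusted p = 6.33e-08) and 7.27-fold in Mist1KO (2.86 ± 0.14, adjusted p = 4.46e-08). The difference of these responses was 0.01 ± 0.20, with a 95% interval from -0.42 to 0.44 (adjusted p = 0.99). With quantile normalization that difference was 0.77 and passed (adjusted p = 0.0184).

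Against wild type, neither acinar keratin passed in Mist1KO. After saline, all 3 Mist1KO arrays of Krt18 lay below all 3 wild type arrays, as did 19.7% of genes, with a difference of -0.30 ± 0.14 (adjusted p = 0.181); with quantile normalization it was -0.42 and passed (adjusted p = 0.0215). For Krt8 the difference after saline was -0.05 ± 0.24 (95% interval -0.57 to 0.46). After caerulein the difference was -0.50 ± 0.24 for Krt8 (adjusted p = 0.165) and -0.29 ± 0.14 for Krt18 (adjusted p = 0.168). The direction of both after caerulein turned with quantile normalization, to 0.29 (adjusted p = 0.417) and to 0.35, the latter past the threshold (adjusted p = 0.0392). Without Mist1KO saline replicate 1, which is outside that comparison but enters the spread, the Krt8 change of -0.50 passed (adjusted p = 0.0492).

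Of the duct keratins, Krt19 rose with caerulein in both genotypes, and further in Mist1KO. Krt19 read 56.9, 89.1 and 87.5 in wild type saline and 290.7, 341.2 and 373.1 in wild type caerulein. It read 64.8, 49.5 and 54.6 in Mist1KO saline and 916.9, 1055 and 585.9 in Mist1KO caerulein. Every caerulein array exceeded every saline array, and every Mist1KO caerulein array exceeded every wild type caerulein array. Krt19 rose 3.69-fold in wild type (1.89 ± 0.21, adjusted p = 3.54e-05) and 11.3-fold in Mist1KO (3.50 ± 0.21, adjusted p = 1.39e-07).

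The response of Krt19 was larger in Mist1KO by 1.62 ± 0.30 (adjusted p = 0.0113 for the interaction), a test that 1.48% of all genes passed in that direction. Krt8, Krt18 and Epcam did not pass it. After caerulein Krt19 was 2.41-fold higher in Mist1KO than in wild type (1.27 ± 0.21, adjusted p = 0.000952). After saline it did not pass (-0.35 ± 0.21, adjusted p = 0.299). With quantile normalization the interaction was 1.41 (adjusted p = 0.0223).

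Krt7 was too dim for the test: its mean lay at the 29.13th percentile of all probe sets, just under the 30th at which the filter was set. It read 10.4, 26 and 7.2 in wild type saline and 107.7, 48.6 and 88.3 in wild type caerulein, and 8, 12.8 and 7.4 in Mist1KO saline and 63.1, 114.5 and 47.7 in Mist1KO caerulein. The caerulein arrays did not overlap the saline arrays in either genotype. With no filter, limma gave Krt7 a rise of 1.59 ± 0.33 in wild type (adjusted p = 0.00673; 6.13% of probe sets rose) and of 1.68 ± 0.33 in Mist1KO (adjusted p = 0.00329; 7.22% rose). In that fit the response differed between genotypes by 0.10 ± 0.47, with a 95% interval from -0.91 to 1.10.

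Krt20 showed a different pattern from the other keratins. In wild type it read 12.2, 73.7 and 33.4 after saline and 54.8, 24.3 and 4.7 after caerulein. In Mist1KO it read 56.7, 32.1 and 54.4 after saline and 344.4, 414.6 and 150 after caerulein. The first 3 groups overlapped one another at low signal, and all Mist1KO caerulein arrays lay above them. Krt20 passed the filter on dim probe sets only through Mist1KO caerulein, where its mean log2 value was 8.22: over the other 9 arrays the mean was 5.72, under the limit of 5.76. Its test is therefore given from the fit with no filter. There Krt20 rose with caerulein in Mist1KO by 2.19 ± 0.49 (adjusted p = 0.0075), and its difference in wild type was -0.34 ± 0.49 (adjusted p = 0.715). After caerulein it was higher in Mist1KO than in wild type by 2.83 ± 0.49 (adjusted p = 0.00193; 6.61% of probe sets were higher), a size that rests on 3 dim wild type arrays whose signal over background is not known. The test of the difference between the responses gave 2.52 ± 0.69 and missed the threshold (adjusted p = 0.0938), as it did with the filter (adjusted p = 0.0564). With the filter the call changed with an offset of 50 and with some arrays left out. Those runs are not read, because Krt20 passed the filter only through Mist1KO caerulein.

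Epcam rose with caerulein and was also higher without Mist1. In wild type it read 105.9, 96.2 and 166.1 after saline and 460.2, 533.6 and 437.5 after caerulein. In Mist1KO it read 386.4, 280.3 and 292.2 after saline and 1643.6, 1425.9 and 1470.4 after caerulein. The 4 groups did not overlap, in the rising order Wild type saline, Mist1KO saline, Wild type caerulein, Mist1KO caerulein. How many genes share this order was not counted. Epcam was 2.42-fold higher in Mist1KO after saline (1.28 ± 0.18, adjusted p = 0.000557) and 3.10-fold higher after caerulein (1.63 ± 0.18, adjusted p = 3.28e-05). With caerulein it rose 3.57-fold in wild type (1.84 ± 0.18, adjusted p = 8.74e-06) and 4.56-fold in Mist1KO (2.19 ± 0.18, adjusted p = 1.32e-06). The responses did not pass as different (0.35 ± 0.25, 95% interval -0.18 to 0.89, adjusted p = 0.535).

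**Figure D2:**
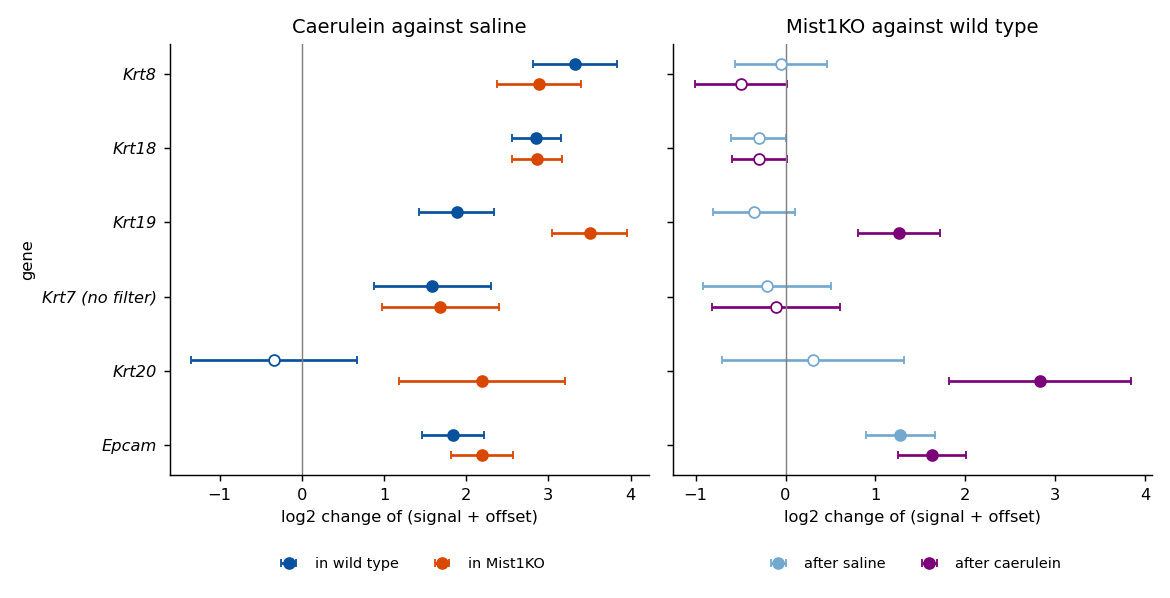
Change of log2(signal + offset), with the offset 18.7, and its 95% interval for each gene, caerulein against saline on the left and Mist1KO against wild type on the right. Filled points have adjusted p under 0.05, and Krt7 is from the fit with no filter. Krt20 is drawn from the fit with the filter, unlike its test in the text, and the same points would be filled with no filter. On the left all genes lie to the right of 0 in both genotypes except Krt20 in wild type; on the right Epcam is displaced after both injections, Krt19 and Krt20 after caerulein.

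Counted by gene, with the brightest probe set of Krt8, caerulein raised Krt8, Krt18, Krt19 and Epcam in wild type, where 8.74% of 9481 genes rose. The same 4 rose in Mist1KO, where 10.2% of genes rose. Krt7 was not tested, and Krt20, which also rose in Mist1KO, is left out of these counts because of how it passed the filter. The caerulein arrays lay wholly above the saline arrays in 12.4% of genes in wild type and 15.5% in Mist1KO, and the Mist1KO arrays above the wild type arrays in 14.4% after saline and 15.5% after caerulein. Epcam alone was higher in Mist1KO after saline (background 6.14%), and Krt19 and Epcam were higher after caerulein (background 9.03%). By limma 0 of the 4 genes counted were lower in any comparison, also at an unadjusted p under 0.05. Of all genes 9.96%, 14%, 6.95% and 11.6% fell in turn, and 1.87% had a negative interaction. With arrays centred on their medians the background of higher calls was 10.7%, 12.3%, 8.2% and 11.1% in the same order, and higher calls made up 66.4%, 57.4%, 65.3% and 56% of all calls in place of 46.8%, 42.2%, 46.9% and 43.7%. Centring moved the median change of all probe sets with caerulein to -0.01 in both genotypes, from -0.14 (wild type) and -0.13 (Mist1KO). The part of the scaling in the rises was not tested.

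Differences between genes within an array, in which the scaling of the array nearly cancels, were compared by exact permutation tests. There were 8 two-sided tests over 400 relabellings each, and the smallest p they can give is 0.005. For Krt8 minus Krt18, caerulein moved the difference by 0.47 in wild type and by 0.02 in Mist1KO (mean 0.25, exact permutation p = 0.275, adjusted p = 0.44). On Mist1KO saline replicate 1 the difference was 0.87, while it lay between -0.35 and -0.09 on the other 5 saline arrays and between 0.04 and 0.47 on all caerulein arrays. Without that array the mean shift was 0.44 and passed (exact permutation test, adjusted p = 0.04), Krt8 gaining more than Krt18.

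For Krt18 minus Krt19 the shift with caerulein was 0.97 in wild type and -0.64 in Mist1KO, opposite directions whose mean did not pass (0.16, exact permutation p = 0.63, adjusted p = 0.72). In wild type the acinar keratin gained more than the duct keratin, with 4.79 to 4.93 after caerulein against 3.59 to 4.18 after saline, and the arrays did not overlap. In Mist1KO the values after caerulein were 3.07, 2.78 and 4.03, against 3.65, 4.18 and 3.96 after saline, so replicate 3 lay within the saline range. Krt8 minus Krt19 moved alike, by 1.44 in wild type and by -0.62 in Mist1KO (exact permutation p = 0.33, adjusted p = 0.44).

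Krt19 minus Epcam was lower in Mist1KO by 1.63 after saline (change -1.63) and by 0.36 after caerulein (change -0.36). It lay at -2.28, -2.13 and -2.08 in Mist1KO saline, below every other array, where it ran from -1.30 to -0.09. The mean of both shifts had an exact permutation p = 0.015 and adjusted p = 0.12, and without Mist1KO caerulein replicate 2 it passed (-1.10, adjusted p = 0.04).

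**Figure D3:**
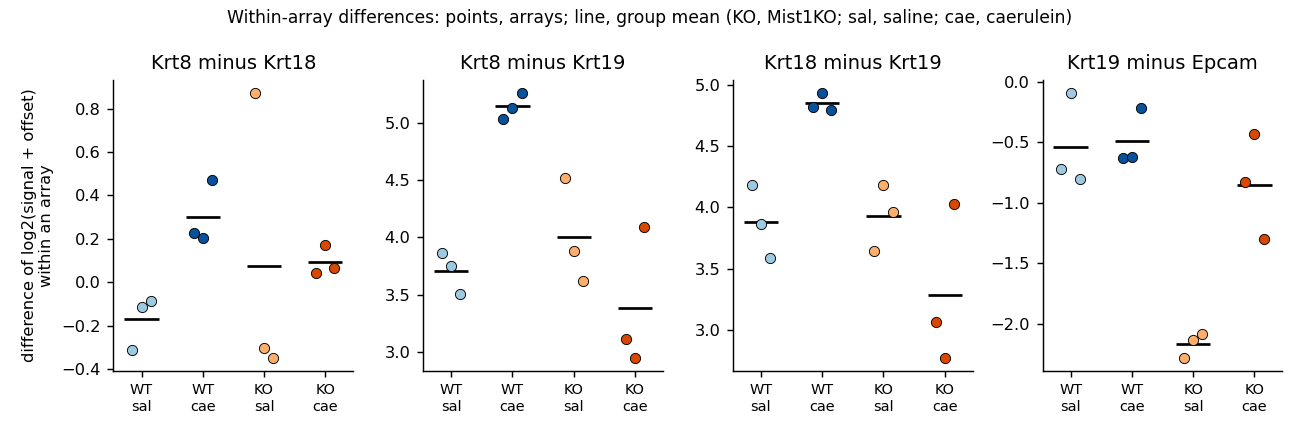
Difference of log2(signal + offset), with the offset 18.7, between 2 genes on the same array, by group; points are arrays and lines are means of 3. Krt8 minus Krt18 is below 0 on 5 saline arrays, above 0 after caerulein and 0.87 on Mist1KO saline replicate 1, Krt18 minus Krt19 is 0.97 higher with caerulein in wild type and 0.64 lower in Mist1KO (change -0.64), and Krt19 minus Epcam is lowest in Mist1KO saline.

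The genes closest to each member were found by the root mean square difference over the 12 arrays, with each gene centred on its own mean log2 value. The 12 arrays fall into 4 groups, so this likeness mostly reads the group means. For Krt8 the closest were Ndrg1, a stress-responsive gene (0.32), Krt18 (0.34) and Cdh1, E-cadherin (0.39), against a median of 1.70 over all genes. For Krt18 they were Ndrg1 (0.27), the kinase gene Map2k3 (0.33) and Fdx1, an electron carrier of mitochondria (0.33). Krt8 and Krt18 differed from each other by 0.34 and from Krt20 by 1.74 and 1.62.

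For Krt19 the closest were Zyx, the focal adhesion protein zyxin (0.34), Fabp5, a fatty acid binding protein (0.37), and Rtn4 (0.38). For Krt20 they were Car9, a carbonic anhydrase (0.53), Mboat1 (0.57) and Cenpt (0.61). Krt20 entered this ranking only through Mist1KO caerulein, and its distances include the scatter among its dim arrays. Car9 averaged 155, 117 and 173 in the first 3 groups and 733 in Mist1KO caerulein. Closest to Epcam was Cldn7, a claudin that binds Epcam (0.31), followed by Msmo1, of sterol synthesis (0.34), and Pfn1, an actin-binding profilin (0.37). Cldn7 averaged 239 after saline and 682 after caerulein in wild type, and 615 and 1993 in Mist1KO.

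Few other keratins passed the test. With caerulein 8.74% of all genes rose and 9.96% fell in wild type, and 10.2% rose and 14% fell in Mist1KO. Of 35 further Krt genes on the array, 22 were bright enough to test, and by limma with caerulein 1 rose and 0 fell in either genotype (1 fell in each at an unadjusted p under 0.05), with medians of -0.27 in wild type and -0.11 in Mist1KO against -0.16 and -0.14 over all genes. The 1 was Krt80, by 0.96 ± 0.20 in wild type (adjusted p = 0.00401) and by 1.22 ± 0.20 in Mist1KO (adjusted p = 0.000474). Of other intermediate filament genes, 1 of 9 fell in wild type (Vim, vimentin, -0.84 ± 0.23, adjusted p = 0.0218) and 1 of 9 rose in Mist1KO (Nes, nestin, 0.77 ± 0.15, adjusted p = 0.00151).

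The desmosome and plakin genes that anchor keratin filaments to membranes and to each other rose in many cases. Of 16 tested, 9 rose in wild type and 7 in Mist1KO, with medians of 0.69 and 0.64. By limma 0 fell in either, against 2 and 0 at an unadjusted p under 0.05. Over all genes 8.74% rose and 9.96% fell in wild type, and 10.2% rose and 14% fell in Mist1KO. Dsp, desmoplakin, rose 6.52-fold in wild type (2.71 ± 0.12, adjusted p = 4.65e-08) and 4.46-fold in Mist1KO (2.16 ± 0.12, adjusted p = 1.06e-07). Jup, plakoglobin, changed by 1.34 ± 0.28 and 1.55 ± 0.28, Eppk1, epiplakin, by 1.29 ± 0.21 and 1.46 ± 0.21, and all 4 passed. Pkp3, plakophilin 3, rose 3.55-fold in Mist1KO. For the interaction 0 of 16 passed by limma, and 3 had a higher and 2 a lower response in Mist1KO at an unadjusted p under 0.05. Of all genes 1.48% passed with a higher and 1.87% with a lower response.

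Among partners of Epcam and epithelial adhesion genes, 7 of 16 rose with caerulein in wild type and 0 fell by limma (1 at an unadjusted p under 0.05), and 7 rose and 2 fell in Mist1KO, with medians of 0.47 and 0.83. Over all genes 8.74% rose and 9.96% fell in wild type, and 10.2% rose and 14% fell in Mist1KO. Cdh1 rose 6.26-fold and 5.17-fold. After caerulein 7 of 16 were higher in Mist1KO than in wild type and 1 was lower, where 9.03% of all genes were higher and 11.6% lower. The higher ones included Cldn7 (1.52 ± 0.17, adjusted p = 3.93e-05), Cd44, a hyaluronan receptor (1.36 ± 0.22, adjusted p = 0.000647), and St14, the protease matriptase (0.94 ± 0.16, adjusted p = 0.00125). The lower one was Psen2, of the gamma-secretase complex that cleaves Epcam (-1.42 ± 0.15, adjusted p = 2.95e-05).

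Keratin aggregates of stressed epithelia hold chaperones and ubiquitin adaptors. Of 10 such genes tested, 6 rose and 1 fell in wild type, and 5 rose and 2 fell in Mist1KO, with medians of 0.75 and 0.58. Over all genes 8.74% rose and 9.96% fell in wild type, and 10.2% rose and 14% fell in Mist1KO. Hspa1b, an inducible Hsp70, rose 8.45-fold in wild type and 3.22-fold in Mist1KO, but it is nearly identical to Hspa1a, which probes may not separate. Sqstm1, the autophagy adaptor p62, rose by 1.04 ± 0.10 in wild type (adjusted p = 8.74e-06), and its response was smaller in Mist1KO (interaction -0.60 ± 0.14, adjusted p = 0.0346). Of 16 kinases, caspases and binding proteins of keratins, 4 rose and 2 fell in wild type, and 6 rose and 4 fell in Mist1KO. The shares over all genes given above apply to these counts too. The largest change in wild type was a fall, of Casp9 (-2.01 ± 0.34, adjusted p = 0.00102), and Casp6 fell in both genotypes. The 14-3-3 protein genes Ywhah and Ywhag, whose products bind phosphorylated Krt18, rose in both, Ywhah by 1.09 ± 0.12 and 1.73 ± 0.12.

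Transcription factors with sites described at simple keratin genes rose in 10 of 19 in wild type and 7 of 19 in Mist1KO, with medians of 1.21 and 0.68. By limma 0 fell in either, against 1 in each at an unadjusted p under 0.05. Over all genes 8.74% rose and 9.96% fell in wild type, and 10.2% rose and 14% fell in Mist1KO. After caerulein 8 of these 19 were lower in Mist1KO than in wild type, and 0 were higher by limma (1 at an unadjusted p under 0.05). Of all genes 11.6% were lower and 9.03% higher in that comparison. Cebpb averaged 1886 in wild type caerulein and 186 in Mist1KO caerulein (-3.24 ± 0.23, adjusted p = 7.98e-07), Fos 607 and 117 (-2.03 ± 0.36, adjusted p = 0.00145) and Junb 1119 and 480 (-1.20 ± 0.31, adjusted p = 0.0134). Krt8 and Krt18 did not pass in the same comparison, and Krt19 and Epcam were higher.

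**Figure D4:**
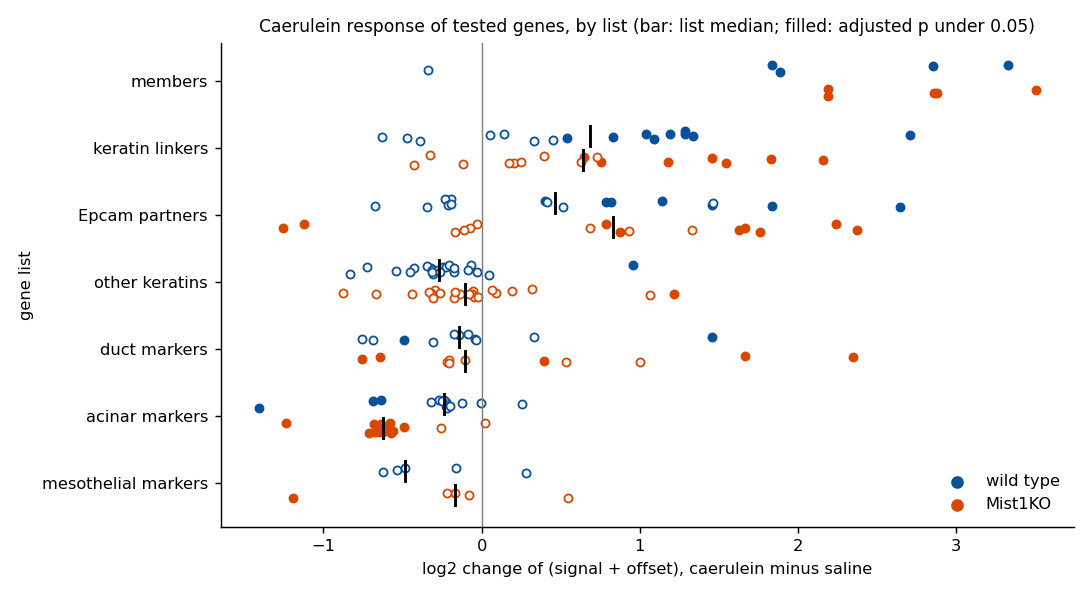
Change of log2(signal + offset) with caerulein of each tested gene, by list, in wild type (blue) and Mist1KO (orange); filled points have adjusted p under 0.05 and black bars are list medians. The members except Krt20 in wild type lie to the right of 0, as do most keratin linkers, while other keratins, duct, acinar and mesothelial markers lie mostly near or below it. Krt20 is drawn from the fit with the filter, which it passed only through Mist1KO caerulein.

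Markers of the cell types that carry these keratins gave the following values beside the rises. Of 11 duct markers tested, 1 rose and 1 fell with caerulein in wild type, and 3 rose and 2 fell in Mist1KO. Over all genes 8.74% rose and 9.96% fell in wild type, and 10.2% rose and 14% fell in Mist1KO. Cldn7 rose in both genotypes. Muc1 fell in wild type (-0.49 ± 0.14, adjusted p = 0.0268). Onecut1 (-0.76 ± 0.25, adjusted p = 0.0423) and Tff2 (-0.64 ± 0.16, adjusted p = 0.00953) fell in Mist1KO. The summed signal of 15 duct markers, 4 of them below the filter, was 12909.9 to 14849.9 in Mist1KO saline and 10535.1 to 13276.3 in Mist1KO caerulein, and most of it was Tff2. In wild type the sum was 16038.7 to 20352.8 after saline and 14510.4 to 17710.7 after caerulein. Cftr, the chloride channel that defines duct cells, was below the filter. It averaged 32.53 after saline and 25.8 after caerulein in wild type, and 13.73 and 39.27 in Mist1KO. Slc4a4, the bicarbonate transporter, averaged 39.07 after saline in both genotypes. After caerulein it averaged 42.03 in wild type and 239 in Mist1KO. It was dim in all groups but Mist1KO caerulein, and whether it would pass the filter without that group was not tested. Its test is therefore not read, although it is among the 3 duct markers counted as risen in Mist1KO.

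Of 15 acinar markers, 3 fell in wild type and 13 in Mist1KO with caerulein, and by limma 0 rose, also at an unadjusted p under 0.05. Over all genes 8.74% rose and 9.96% fell in wild type, and 10.2% rose and 14% fell in Mist1KO. The summed signal of the acinar markers was 184327.8 to 254118.5 in wild type caerulein and 163679 to 189916.4 in Mist1KO saline. In Mist1KO against wild type after caerulein, 1 of the 15 acinar markers was higher and 12 were lower by limma. Of the 11 duct markers tested, 3 were higher in that comparison, Slc4a4 among them, and 1 was lower. Over all genes 9.03% were higher and 11.6% lower there. Of 5 mesothelial markers tested, 0 rose by limma with caerulein in either genotype, also at an unadjusted p under 0.05, and their sum over 8 genes was 615.7 to 1027.5 in Mist1KO saline and 566.4 to 681.9 in Mist1KO caerulein. Msln, which defines mesothelium, averaged 12.03 to 21.03, below the filter. For Krt20, gut markers are the ones to set beside it: Cdx2 averaged 23.37 and 24.6 in Mist1KO, Vil1 3.5 and 7.03 and Lgals4 56.37 and 16.83 after saline and caerulein, all below the filter. Of 6 gastric and intestinal markers tested, 0 rose by limma with caerulein in wild type (also at an unadjusted p under 0.05) and 2 fell, Atp4a and Tff3. In Mist1KO 1 rose and 1 fell (1 and 3 at an unadjusted p under 0.05), with a median of -0.52. The list's summed signal was 3103.5 to 3497.2 in Mist1KO saline and 2089 to 2702.5 in Mist1KO caerulein. Cblif, whose fall is given below, was a large part of that sum. Cldn18 rose in Mist1KO (1.24 ± 0.20, adjusted p = 0.000441), with a response above that in wild type (interaction 1.43 ± 0.28, adjusted p = 0.0155). Cblif, gastric intrinsic factor, fell in Mist1KO (-1.49 ± 0.26, adjusted p = 0.000765). It averaged 7.37 and 4.77 in wild type and 1298 and 472 in Mist1KO, after saline and caerulein. The part of cell type shares in the changes was not tested.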

How the data were processed

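Gene expression was measured on 12 Affymetrix arrays, 1 per pancreas, and samples were grouped by their titles. The deposited values are linear signal intensities, 1 per probe set. The software and scaling target behind them were not given in the sources used here, and no detection calls were used. Their 2% trimmed means lay between 151.08 and 151.37, and array medians between 70.6 and 90.15, within the 1.5-fold limit set for keeping the deposited scaling. No arrays held identical values, and the number of arrays limits the precision. Genes were named from the platform annotation, with 20240 probe sets of 1 symbol, 682 of several and 1530 of none; updating symbols through GRCm38.p6 gene identifiers changed 0.

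Before log2, each value was raised by 18.7, which is the 20th percentile over the whole table. Control probe sets and those whose mean log2 value was at or below the 30th percentile were left out. limma 3.58.1 in R 4.3.3 fitted 4 group means (lmFit, eBayes with an intensity trend, 8 residual and 5.75 prior degrees of freedom), with Benjamini-Hochberg adjustment and a threshold of 0.05. The fit was tested on simulated data. Lists held 225 genes, of which 195 matched, plus all further Krt genes; the brightest probe set stood for a gene. Members, lists and tests were chosen with earlier results of these data known. From a list at most the 4 largest changes past the threshold and defining markers are named, and for each member the 3 closest genes. Alternatives were other offsets, no filter, 2 other scalings, no trend, only the groups compared, a replicate block, other Krt8 probe sets and leaving out each array. Figures used matplotlib 3.10.9 in Python 3.11.15.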

Additional observations from a re-analysis of the deposited data

Results flagged for a closer look

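The caerulein response of Krt19 differed between the genotypes by limma's interaction test. The response in Mist1KO minus that in wild type was 1.62 on the log2 scale (adjusted p = 0.0113). In each genotype all 3 caerulein arrays lay above all 3 saline arrays. The call held under all 7 other settings (1.41 to 1.75) and without each of the 12 arrays in turn (1.45 to 1.86, adjusted p from 0.00363 to 0.0371). Groups of 3 arrays were too small to test single arrays for standing apart.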

How the results depend on the processing

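The rises of Krt8, Krt18, Krt19 and Epcam with caerulein in both genotypes kept their direction and stayed past the threshold under every alternative run. So did the higher Epcam in Mist1KO after both injections and the higher Krt19 in Mist1KO after caerulein. Krt20 is left out of this, because all runs except that with no filter kept the filter it passed only through Mist1KO caerulein. The counts that follow include it all the same. The number of members that changed, Krt20 included, went from 1 to 2 with quantile normalization for Mist1KO against wild type after saline, from 3 to 4 with it after caerulein, where the added gene was Krt18, and from 1 to 2 for the interaction with quantile normalization or an offset of 50. With no filter or an offset of 50 it went from 4 to 5 and from 5 to 6 for caerulein in wild type and Mist1KO. Without each array in turn these counts were 4 to 4 and 5 to 5 with caerulein, 1 to 1 and 3 to 4 for the genotypes, and 1 to 2 for the interaction. Directions that turned belonged to changes that had not passed as reported. With quantile normalization Krt8 and Krt18 in Mist1KO against wild type after caerulein were 0.29 and 0.35, and the Krt8 interaction 0.46. With arrays centred on their medians Krt8 in Mist1KO after saline was 0.038. With an offset of 1 the shift of Krt18 minus Krt19 with caerulein was -0.11. Without single arrays, Krt20 with caerulein in wild type was -0.74 to 0.085, in Mist1KO after saline Krt8 was -0.39 to 0.16 and Krt20 -0.085 to 0.71, and the Krt18 interaction was -0.12 to 0.094. Within-array shifts without single arrays were, with caerulein, 0.14 to 0.44 (Krt8 minus Krt18), -0.020 to 0.29 (Krt18 minus Krt19), and, in Mist1KO, -0.18 to 0.13 (Krt8 minus Krt18) and -1.10 to -0.88 (Krt19 minus Epcam). The cause was not tested. Replicate numbers did not pair the arrays (correlations of same-numbered arrays from -0.05 to 0.05). With the replicate block the calls of Krt8, Krt18, Krt19 and Epcam were as without it. Signal over background is not known, which limits Krt7 and Krt20 most.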
